A study of Mus musculus with 3 samples.

Results

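The Nrf2 antioxidant genes described here are 10 genes chosen by name: the transcription factor gene Nfe2l2, its inhibitor gene Keap1, and 8 genes that the factor is known to activate, Hmox1, Nqo1, Gclc, Gclm, Txnrd1, Srxn1, Slc7a11 and Gsr. The platform annotation gives them 21 of the 45101 probe sets of the array, and they are 10 of the 18193 genes with a probe set of their own. They were read in immortalized lymphatic endothelial cells (imLECs) of mouse skin, sorted by flow cytometry from H-2Kb-tsA58 mice (ImmortoMice). In this strain the H-2Kb promoter, which interferon-gamma induces, drives a temperature-sensitive viral large T antigen, so all cultures carry that transgene. The single group holds 3 cultures, 1 each at passages 13, 14 and 18, grown at 33 °C with interferon-gamma and then for 3 days at 37 °C without it, a step meant to let the T antigen decay. The labels call the cells normal and healthy, give no age or number of mice, and apply no oxidant or Nrf2 activator, so the values below describe unstimulated cultures.

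NRF2, the protein of Nfe2l2, is the main transcriptional activator of antioxidant and detoxifying enzymes. In unstressed cells KEAP1 holds it in the cytoplasm and presents it to a ubiquitin ligase built on CUL3, and it is degraded. Oxidants and electrophiles modify cysteines of KEAP1, NRF2 then accumulates, pairs with a small MAF protein and binds the antioxidant response element of its targets, while BACH1 competes for the same element. Because this control acts on the protein, the transcript of Nfe2l2 does not by itself measure the activity of the factor. In endothelium the pathway is known for keeping glutathione and thioredoxin reduced and for inducing heme oxygenase under oxidative or flow stress.

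A gene was called detected where its brightest probe set lay above a floor on all 3 arrays. The floor of an array is the 95th percentile of 16 genes restricted to other tissues, among them the liver gene Alb and the sperm genes Prm1 and Prm2. It stood at 45.5 units of intensity on the passage 13 array, 45.0 at passage 14 and 72.7 at passage 18 (5.51, 5.49 and 6.18 in log2). Without Prm1 and Syt1, a choice made after seeing the data, it stood at 29.0, 33.2 and 29.1 units. Of all measured genes 8610 were detected, and of the 10 members 9 were, against 47.3% of all genes. Of 13 measured genes of all endothelium, such as Pecam1 and Cdh5, 13 were detected, and of 11 lymphatic genes 7 were. Among those 7, Lyve1 read 1375, 2929 and 162.9 units at passages 13, 14 and 18, 18.0-fold lower at passage 18 than at 14. Prox1, the factor that defines lymphatic identity, read 73.4, 34.6 and 48.6 units, above the floor at passage 13 alone but on all arrays by the floor without Prm1 and Syt1, and Itga9, Mmrn1 and Reln were below it on all arrays. Of 11 leukocyte and macrophage genes 0 were detected, with Ptprc and Adgre1 below the floor on every array, Cd68 above it at passages 13 and 14, and a summed intensity of 268 to 440 over the 11. Of 9 keratinocyte genes 1 was detected. Of 13 fibroblast and mural genes 6 were, with a summed intensity of 9268 at passage 13, 2842 at passage 14 and 11445 at passage 18. The 3'/5' signal ratio of the Gapdh control probe sets, a measure of RNA and amplification quality, was 8.59, 7.10 and 19.4 at passages 13, 14 and 18, so the passage 18 array stood apart, whereas that of Actb was 1.18, 1.20 and 1.42. Its part in the differences below was not tested.

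RefSeq promoter windows of assembly GRCm38.p6, from 250 bases before to 50 bases after an annotated transcript start, were given for 7 of the 10 members, with 3 windows for Txnrd1 and none for Hmox1, Gclc and Gsr. The core of the antioxidant response element, TGACNNNGC on either strand, was found in 4 of these 7 genes, against 14.0% of all 27025 genes with a window. The 4 windows that hold it are printed to show the element in its context, and that of Nqo1, a standard reporter of Nrf2 activity, follows as a window without it. Capitals mark the element core and, in Srxn1, also the AP-1 site TGANTCA, a palindrome-like motif that can overlap the element. Each window is printed 5′ to 3′ on the strand of its gene, and a match on the opposite strand appears as its reverse complement.
Nfe2l2, chr2:75704614-75704913, minus strand: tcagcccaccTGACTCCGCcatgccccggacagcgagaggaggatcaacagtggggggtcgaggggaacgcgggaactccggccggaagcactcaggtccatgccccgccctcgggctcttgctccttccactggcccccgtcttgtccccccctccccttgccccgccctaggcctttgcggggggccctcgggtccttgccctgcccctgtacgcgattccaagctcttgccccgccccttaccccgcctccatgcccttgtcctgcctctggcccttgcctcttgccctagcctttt
Gclm, chr3:122245307-122245606, plus strand: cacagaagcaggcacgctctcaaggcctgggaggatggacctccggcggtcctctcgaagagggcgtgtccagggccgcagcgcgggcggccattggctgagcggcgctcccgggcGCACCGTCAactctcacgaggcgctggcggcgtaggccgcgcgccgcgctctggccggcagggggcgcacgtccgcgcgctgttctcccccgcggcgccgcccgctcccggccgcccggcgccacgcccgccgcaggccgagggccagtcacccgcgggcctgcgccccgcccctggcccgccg
Txnrd1, second of 3 windows by position, chr10:82858956-82859255, plus strand: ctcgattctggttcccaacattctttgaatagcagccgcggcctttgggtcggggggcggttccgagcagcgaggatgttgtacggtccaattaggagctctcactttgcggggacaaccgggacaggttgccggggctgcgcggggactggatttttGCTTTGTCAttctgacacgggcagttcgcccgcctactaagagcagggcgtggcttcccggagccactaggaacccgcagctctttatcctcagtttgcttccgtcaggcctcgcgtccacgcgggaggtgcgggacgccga
Srxn1, chr2:152105274-152105573, plus strand: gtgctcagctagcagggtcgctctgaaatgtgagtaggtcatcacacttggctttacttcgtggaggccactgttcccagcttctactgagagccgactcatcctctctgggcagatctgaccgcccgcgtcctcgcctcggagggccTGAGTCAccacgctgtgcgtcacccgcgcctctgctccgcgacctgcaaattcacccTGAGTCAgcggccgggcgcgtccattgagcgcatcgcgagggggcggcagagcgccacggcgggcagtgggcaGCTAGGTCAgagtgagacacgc
Nqo1, chr8:107403156-107403455, minus strand: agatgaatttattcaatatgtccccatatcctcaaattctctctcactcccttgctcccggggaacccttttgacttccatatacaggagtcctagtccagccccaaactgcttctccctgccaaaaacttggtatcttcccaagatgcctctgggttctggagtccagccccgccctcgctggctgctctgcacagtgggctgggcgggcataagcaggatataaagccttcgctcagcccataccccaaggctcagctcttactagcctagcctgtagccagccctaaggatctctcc

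The match in Nfe2l2 was TGACTCCGC on the strand of the gene, from base -240 to base -232 relative to the start. Those in Gclm and Txnrd1 lay on the opposite strand, TGACGGTGC from -134 to -126 and TGACAAAGC from -92 to -84. In Srxn1 the core TGACCTAGC lay after the start, from 29 to 37 on the opposite strand. Srxn1 was also the single member with the AP-1 site, TGAGTCA, which it held at -102 to -96 and again at -45 to -39, whereas 8.97% of all genes with a window hold it at least once. The windows of Keap1, Nqo1 and Slc7a11 and the other windows of Txnrd1 held neither motif. A match describes the letters of the window and is not evidence of binding, and elements farther from the start lie outside it.

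**Figure D1:**
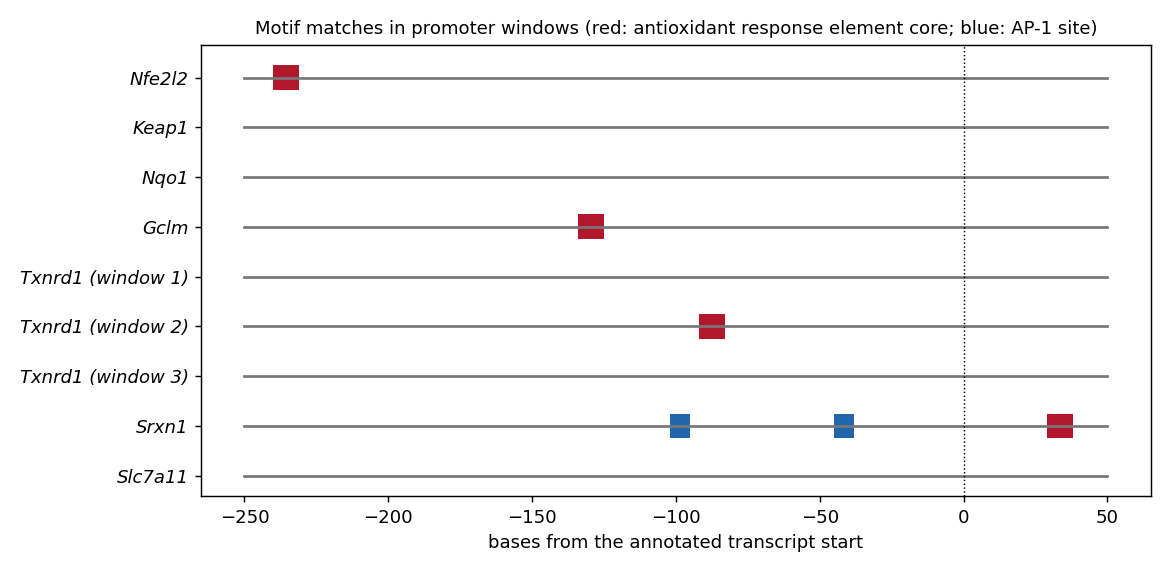
Positions of motif matches in the 9 RefSeq promoter windows of 7 members; the horizontal axis is the distance in bases from the annotated transcript start, red boxes are the antioxidant response element core and blue boxes the AP-1 site. Red boxes stand in Nfe2l2, Gclm, Txnrd1 (window 2) and Srxn1, and blue boxes in Srxn1 alone.

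Both genes of the switch itself were detected, with a range between cultures of 1.31-fold in Nfe2l2 and 1.24-fold in Keap1 on the bright probe sets. Nfe2l2 read 1212, 1203 and 927.5 intensity units at passages 13, 14 and 18 on its bright probe set, a log2 level of 10.11 ± 0.22 (SD, n = 3 cultures). The first and second of these arrays were nearly equal and passage 18 was lower, 1.31-fold below passage 13. Its other probe set read 17.6, 17.5 and 25.2 units, below the floor on all arrays, so its values have no order. They limit the signal of that probe set only, not the amount of Nfe2l2 transcript. Keap1 read 921.7, 1139 and 973.2 units (9.98 ± 0.16), highest at passage 14 by 1.24-fold over passage 13. The other Keap1 probe set was below the floor on all arrays, at 11.96 to 19.2 units.

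**Figure D2:**
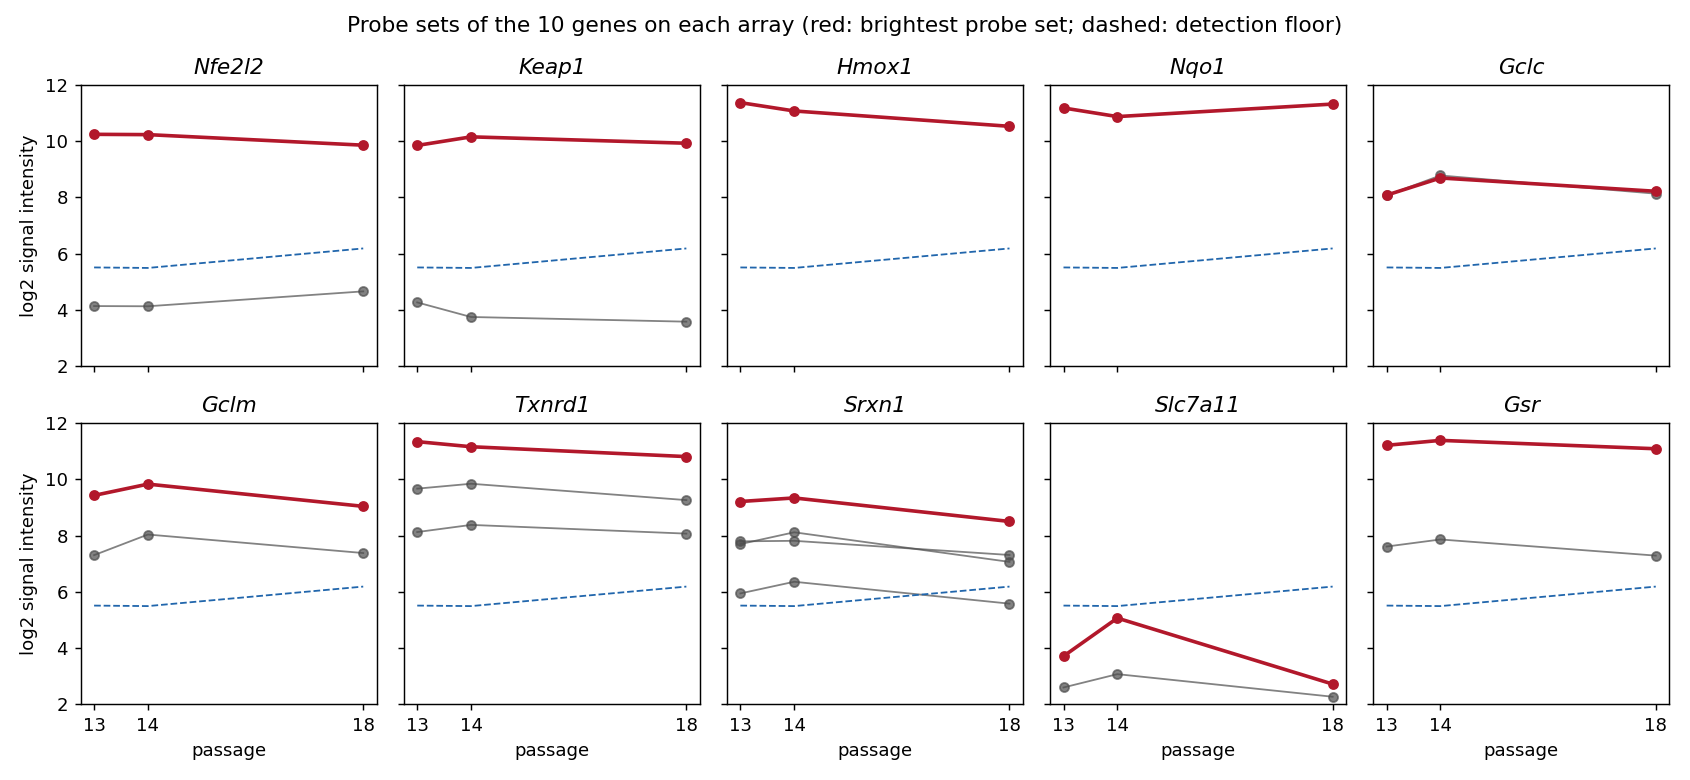
Log2 signal intensity of each of the 21 probe sets of the 10 genes (vertical axis) on the arrays of passages 13, 14 and 18 (horizontal axis, 1 culture each); red is the brightest probe set of a gene and the dashed blue line the floor. The brightest probe sets of 9 genes run well above the floor, with a range between arrays of 1.23-fold in Gsr to 1.79-fold in Hmox1 and Srxn1, and both probe sets of Slc7a11 lie under it.

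The genes of glutathione synthesis were split between 2 detected enzyme subunits and a transporter below the floor. Gclc encodes the catalytic subunit of glutamate-cysteine ligase, the rate-limiting enzyme of glutathione synthesis. Its brighter probe set read 270.7, 413.2 and 297.6 units at passages 13, 14 and 18 (8.33 ± 0.32), and the second read 269.1, 439.6 and 280.5 units. Both stood apart at passage 14, where the brighter one was 1.53-fold and the second 1.63-fold above passage 13. Gclm encodes the modifier subunit of the same enzyme, which raises its efficiency. Its brighter probe set read 688.2, 909.6 and 525.9 units (9.43 ± 0.40), and the second read 157.9, 262.5 and 166.3 units. Both Gclm probe sets were highest at passage 14, but they parted at passage 18, where the brighter one was 1.31-fold below passage 13 and the second 1.05-fold above it. The order of passages 13 and 18 is therefore unsettled for Gclm, whereas its passage 14 value was the highest in either reading.

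Slc7a11 encodes xCT, the cystine importer that supplies cysteine for glutathione. It was the single member not detected, with 13.1, 33.5 and 6.58 units on its brighter probe set and 6.05, 8.40 and 4.81 units on the other. These values lie below the floors of 45.5, 45.0 and 72.7 units, so they have no order. They limit the signal of these probe sets and not the amount of transcript. Nfe2l2 and Keap1 each had a probe set below the floor beside a bright one. By the floor without Prm1 and Syt1 the brighter probe set lay just above it at passage 14 (33.5 against 33.2 units) and below it at passages 13 and 18. Slc3a2, the heavy chain that xCT and several other transporters need, was detected at 370.5, 362.1 and 627.1 units.

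The reductases that recycle glutathione and thioredoxin were all detected. Gsr, glutathione reductase, returns oxidized glutathione to its reduced form. Its brighter probe set read 2368, 2674 and 2175 units (11.23 ± 0.15), and the second read 195.2, 232.4 and 156.1 units, so both gave the same order, with passage 14 highest and passage 18 lowest. The brighter one had the smallest range of the detected members, 1.23-fold. Txnrd1, the cytosolic thioredoxin reductase, is a selenoprotein that keeps thioredoxin reduced. Its brightest probe set read 2592, 2286 and 1793 units (11.10 ± 0.27), and the others read 813.4, 917.9 and 613.2 units and 278.9, 332.8 and 268.4 units. All 3 Txnrd1 probe sets were lowest at passage 18, but only the brightest was highest at passage 13, and the other two were highest at passage 14.

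Srxn1, sulfiredoxin, reactivates peroxiredoxins that peroxide has over-oxidized. Its brightest probe set read 592.5, 646.9 and 362.3 units at passages 13, 14 and 18 (9.02 ± 0.45). The next ones read 221.9, 224.8 and 158.5 units and 207.4, 277.4 and 133.7 units. The dimmest read 61.4, 81.9 and 47.8 units, and only the last of these lay under the floor of its array. All 4 Srxn1 probe sets were highest at passage 14. The 3 brighter ones were lowest at passage 18, where the dimmest has only an upper limit. At passage 18 the brightest lay 1.79-fold below its passage 14 value. Of the 4, the probe set whose name ends in _s_at, which can pick up related transcripts, was 2.07-fold lower, the one member probe set to pass 2-fold among those that cleared the floor on every array.

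The remaining enzymes, each with 1 probe set, differed in direction. Hmox1, heme oxygenase 1, breaks heme down to biliverdin, carbon monoxide and iron. It read 2648, 2156 and 1477 units (10.99 ± 0.43), lower at each later passage, with passage 18 lying 1.79-fold below passage 13. Hmox2, the constitutive heme oxygenase, read 1180, 1172 and 1101 units. Nqo1, a quinone reductase and a standard reporter of Nrf2 activity, read 2322, 1877 and 2555 units (11.12 ± 0.23). It was lowest at passage 14 and highest at passage 18, 1.36-fold above passage 14, the reverse of the order in Gsr, Srxn1 and the brighter probe set of Gclm.

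Between cultures, 8 of the 9 detected members were lower at passage 18 than at passage 14, with Nqo1 as the exception, and the median difference was -0.38 on the log2 scale. Among all detected genes 47.1% were lower in that comparison, and their median difference was 0.03. Of the 16 member probe sets that cleared the floor on every array, 15 were lower at passage 18. These probe sets share genes and arrays, and each passage is 1 culture, so the count describes these arrays and has no replicate check. The sizes were modest, from -0.84 in Srxn1 and -0.79 in Gclm to -0.23 in Keap1, and 0 of 9 members reached 2-fold, whereas 11.8% of all detected genes did in either direction. The pan-endothelial genes were lower at passage 18 in 13 of 13, with a median of -0.66. The detected cell cycle genes were lower in 8 of 9, with a median of -1.86. Of 7 detected lymphatic genes 4 were lower, with a median of -0.65. The detected fibroblast and mural genes were higher in 6 of 6, with a median of 1.79, and the Gapdh ratio was 19.4 at passage 18 against 7.10 at passage 14. How far these move the members was not tested, and fewer cells of a type and less RNA per cell cannot be told apart in these cultures.

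Against passage 13 the members were less uniform. At passage 18, 6 of 9 detected members were lower than at 13, with a median of -0.39 (-0.22 where a gene is the median of its probe sets), against 49.7% lower and a median of 0 among all detected genes. Hmox1 (-0.84) and Srxn1 (-0.71) lay outside the range from the 5th to the 95th percentile of detected genes, which was -0.68 to 0.71. Txnrd1 (-0.53), Gclm (-0.39), Nfe2l2 (-0.39) and Gsr (-0.12) were lower within that range, and Keap1 (0.08), Gclc (0.14) and Nqo1 (0.14) were slightly higher. In this pair the pan-endothelial genes were lower in 13 of 13, with a median of -0.52. The detected cell cycle genes were lower in 8 of 9, with a median of -0.47. Of 7 detected lymphatic genes 5 were lower, with a median of -0.92. The detected fibroblast and mural genes had a median of 1.63, and the Gapdh ratio was 19.4 at passage 18 against 8.59 at passage 13. The part of these in the member differences was not tested. At passage 14, 4 of 9 members were lower than at 13, with a median of 0.13, against 52.1% lower among all detected genes, and of the 16 member probe sets that cleared the floor 12 were higher and 4 lower. With median centring of the arrays 3 of the 9 were lower. Gclc (0.61) and Gclm (0.40) had the largest differences there, and Nfe2l2 (-0.01) the smallest. In the same pair all 9 detected cell cycle genes were higher at passage 14, with a median of 1.08. The detected fibroblast and mural genes were lower in 5 of 6, with a median of -1.16. The part of these shifts in the member differences was not tested. No detected member reached 2-fold in these comparisons (0 of 9 in each), against 4.11% of detected genes between passages 18 and 13 and 4.97% between passages 14 and 13. The comparisons share arrays, so they are not independent of each other.

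**Figure D3:**
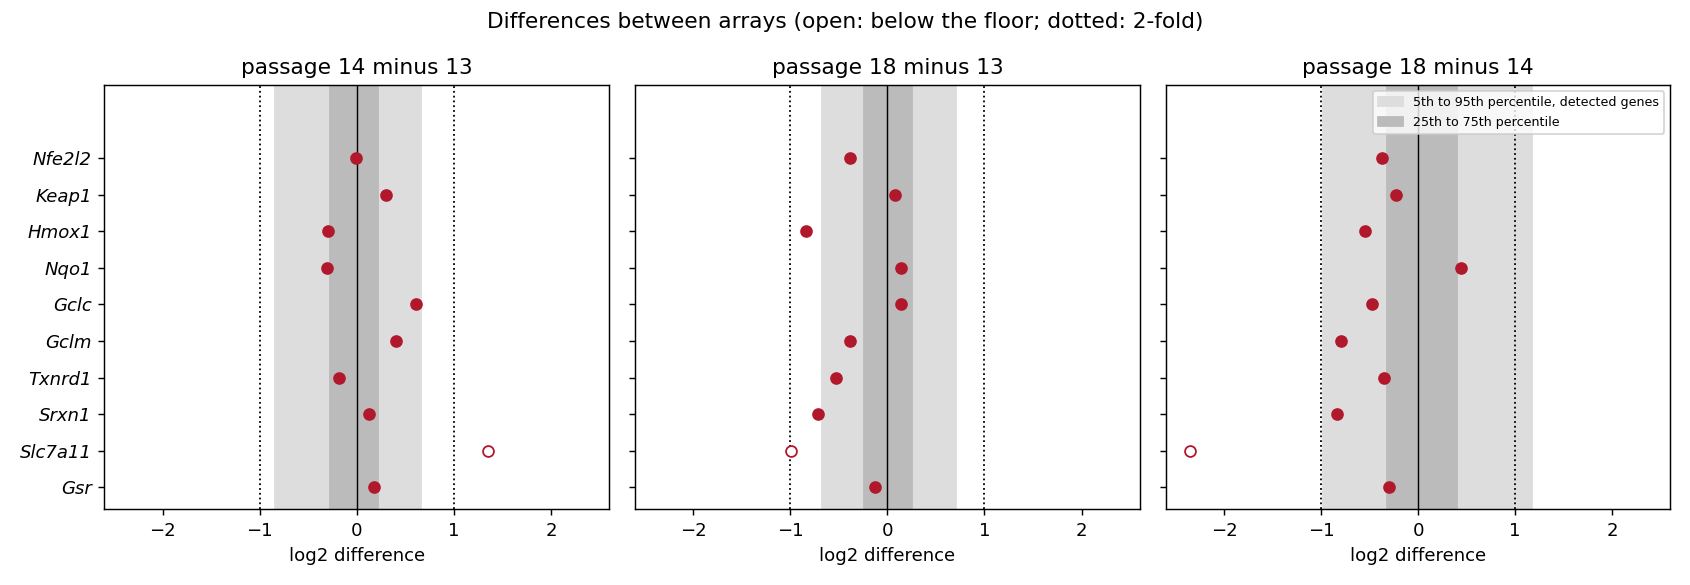
Log2 difference of the brightest probe set between 2 arrays (horizontal axis) for each of the 10 genes, with 1 panel for each pair of passages; filled points were detected, the open point (Slc7a11) was below the floor, grey bands are the 5th to 95th and 25th to 75th percentiles of all detected genes, and dotted lines mark 2-fold. In the panel of passage 18 minus 14 the filled points other than Nqo1 lie between -0.84 and -0.23.

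No member passed a test for a trend with passage number. In limma over the 9461 genes whose mean lay above the mean floor, 0 genes passed at an adjusted p under 0.05 (0.0%), and 330 (3.49%) had an unadjusted p under 0.05, among them 1 of the 9 tested members. That member was Hmox1, with a slope of -0.16 ± 0.05 log2 units per passage (SE, unadjusted p = 0.0315, limma adjusted p = 0.888) and lower values at each later passage. Srxn1 had a slope of -0.16 ± 0.07 (limma adjusted p = 0.888) and Txnrd1 of -0.10 ± 0.04 (limma adjusted p = 0.888). Without the passage 18 array the Srxn1 slope was 0.13, so its direction rests on that array. Those of Hmox1 and Txnrd1 were then -0.30 and -0.18. The Txnrd1 value is that of its brightest probe set. Its other probe sets were higher at passage 14 than at 13, by 0.17 and 0.25 log2 units. The adjusted p of the other members lay between 0.888 and 0.987. With 3 arrays the fit leaves 1 residual degree of freedom for a gene, so a p that misses the threshold does not show that a gene was stable. The p-values rest on the spread of these 3 cultures around the fitted line, moderated by that of other genes (2.68 prior degrees of freedom). The labels do not describe the independence of the cultures beyond separate culture.

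The spread of the members across cultures was close to that of the array as a whole. The median SD of the 9 detected members was 0.27 log2 units, against 0.24 over all detected genes. Srxn1 and Hmox1 had the widest spread, with SDs of 0.45 and 0.43 at the 81.1st and 79.2nd percentiles of detected genes. Gsr and Keap1 had the narrowest, 0.15 and 0.16, at the 27.5th and 29.6th percentiles. Nfe2l2 stood near the middle, at the 45.6th percentile.

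**Figure D4:**
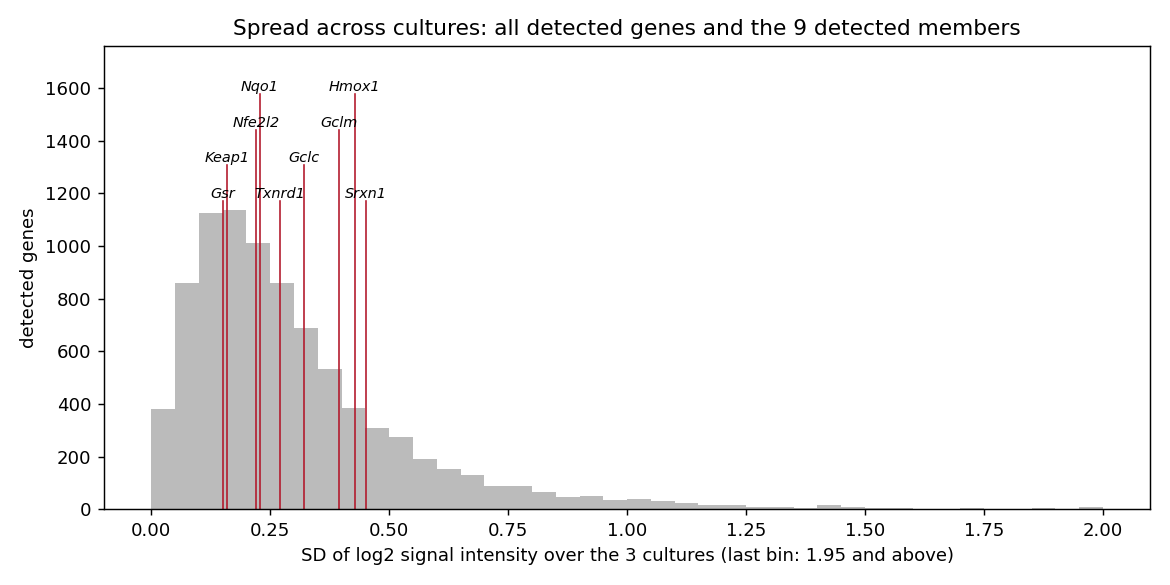
Histogram of the SD of log2 intensity over the 3 cultures (horizontal axis, log2 units) for the 8610 detected genes (vertical axis, number of genes), with red lines at the 9 detected members. The lines run from 0.15 in Gsr to 0.45 in Srxn1, within the body of the histogram.

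The profiles of Hmox1 and Srxn1, the detected members with the widest range, had many close neighbours. The detected genes closest to Hmox1, by Euclidean distance of log2 values centred on their mean over the 3 arrays, were Slc35g1 (327.5, 265.5 and 183 units), Galnt1 (2598, 2116 and 1436 units) and Mtg1 (148.5, 118.8 and 83.1 units). Those closest to Srxn1 were Dnm3 (128.7, 139.7 and 78.0 units), Sstr4 (183.8, 203.2 and 113.5 units) and Polr2f (599.1, 646.3 and 357.7 units). Their distances were at most 0.023 for Hmox1 and 0.024 for Srxn1. With 3 arrays, 129 detected genes lay within a distance of 0.2 of Hmox1 and 250 within that distance of Srxn1, so closeness singles out no gene.

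The partners and regulators of NRF2 were mostly detected, 11 of 13. Maff, a small MAF protein gene that stress and cytokines induce, had the widest range, with 2042, 642.2 and 1137 units at passages 13, 14 and 18. It was 3.18-fold lower at passage 14 than at 13, the single gene of this list to pass 2-fold in any pair. Sqstm1, which encodes p62, a target of NRF2 that in turn draws KEAP1 into autophagy, read 1336, 1706 and 860.7 units and was 1.98-fold lower at passage 18 than at 14. Its order was that of Srxn1 and Gsr. Bach1, the repressor of Hmox1, read 339.5, 366.4 and 519.3 units, highest at passage 18, and its relative Bach2 read 88.7, 56.0 and 93.8 units. Cul3, the scaffold of the ligase that ubiquitinates NRF2, was nearly level at 1989, 1952 and 1814 units, and Nfe2l1, a relative of NRF2, read 330.2, 279.6 and 298.4 units. Gsk3b and Btrc, which serve a KEAP1-independent route of NRF2 degradation, were highest at passage 18, at 2872 and 324.9 units, against 2151 and 297.9 units at passage 13. Rbx1 and Nfe2l3 were below the floor on all arrays, but Rbx1, at 33.9, 36.3 and 35.8 units, was above it on all of them when Prm1 and Syt1 were left out of the floor.

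Other genes known as NRF2 targets showed no common direction. Of 25 measured 19 were detected. Between passages 18 and 14, 8 of these were lower and 11 higher, with a median of 0.03, close to that of all detected genes. Between passages 18 and 13, 7 were lower and 12 higher, with a median of 0.06, against 49.7% lower among all detected genes. Between passages 14 and 13, 10 were lower and 8 higher, with a median of -0.08, against 52.1% lower. Taldo1, transaldolase of the pentose phosphate pathway, read 560.5, 667.9 and 293.9 units and was 2.27-fold lower at passage 18 than at 14. Ptgr1, a reductase of reactive aldehydes and prostaglandins, was 2.18-fold higher at passage 18 than at 14, with 523.8, 365.3 and 794.9 units at passages 13, 14 and 18. Like Nqo1, it was lowest at passage 14 and highest at passage 18.

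The same order as in Nqo1 was read in Idh1, the cytosolic isocitrate dehydrogenase (1089, 612.9 and 1206 units), and in Ugdh, which makes UDP-glucuronate (2822, 1763 and 2912 units). Cbr1, a carbonyl reductase, gave it too (173.9, 120.9 and 196.7 units). Gstp1, a glutathione transferase, read 1182, 1990 and 1691 units and was lowest at passage 13. Txn1 and Fth1, thioredoxin and the ferritin heavy chain, were nearly level, at 5612 to 5912 and 8144 to 8362 units. Gsta2, Gsta3, Gpx2 and Osgin1 were below the floor on all arrays (Gpx2 was above the floor without Prm1 and Syt1 on all of them), and Gsta1, G6pdx, Ftl1, Prdx1 and Htatip2 were not analysed here.

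Of the wider glutathione and thioredoxin system, 22 of 25 measured genes were detected. Between passages 14 and 13, 17 of them were lower, with a median of -0.11, against 52.1% of all detected genes. Of the 22, 3 were lower by 2-fold or more, against 274 of all 8610 detected genes. Between passages 18 and 13, 11 of the 22 were lower, against 49.7% of all detected genes. Between passages 18 and 14, 9 were lower and 13 higher, with a median of 0.29, against 47.1% lower and a median of 0.03 among all detected genes. Those 2-fold lower at passage 14 than at 13 were Gpx3, the secreted glutathione peroxidase (706.6, 236 and 544.4 units), Ggct, which degrades gamma-glutamyl peptides (1170, 544.8 and 827.4 units), and Gpx7, a peroxidase of the endoplasmic reticulum (248.3, 117.2 and 79.2 units). Txnrd3, a relative of Txnrd1, was 1.97-fold higher at passage 18 than at 14, with 134.9, 133.7 and 263.6 units at passages 13, 14 and 18. The methionine sulfoxide reductases Msrb1 and Msra were likewise highest at passage 18, at 214.4 and 166.9 units, against 111.3 and 87.1 units at passage 14. Sod1 and Glrx5 were nearly level, at 8971 to 9364 and 861.9 to 921.3 units. Glrx3 and Sod3 were below the floor on all arrays.

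Around Hmox1, 12 of 13 measured heme and iron genes were detected. Tfrc, the transferrin receptor through which cells take up iron, read 663.5, 1945 and 587.1 units. The passage 14 value was 2.93-fold that of passage 13, and passage 18 lay 3.31-fold below passage 14. Slc40a1, the iron exporter ferroportin and itself a target of NRF2 and heme, read 195.5, 173.3 and 77.1 units so passage 18 lay 2.54-fold below passage 13. It gave the same order as Hmox1, but its passage 18 value lay close to the floor of that array, 72.7 units. Fech, which inserts iron into protoporphyrin to make heme, went the other way at passage 18, at 1539 units, against 823.2 units at passage 13. Blvra, which reduces the biliverdin that heme oxygenase makes, read 600.1, 514.6 and 425.7 units.

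Slc7a11 is also a target of ATF4, and p53 is known to repress it. Of the ATF4 list 11 of 12 genes were detected, with Atf4 itself at 949.2, 1107 and 1747 units. Trib3, a pseudokinase gene that ATF4 induces, read 512.6, 614.8 and 235.2 units, and Asns, asparagine synthetase, 1167, 1259 and 1321 units. Of the 11 detected genes, 9 were higher at passage 14 than at 13, against 47.5% of all detected genes. At passage 18, 9 were higher than at 13, against 49.8%, and 7 were higher than at 14, against 52.7%. Trib3 was among the 2 that were lower at passage 18 than at 13. The signals of Atf4, Trib3 and Asns were above the floor on all arrays, and those of the Slc7a11 probe sets were below it. Any part of ATF4 or p53 in the Slc7a11 signal was not tested. Of the p53 list, 6 of 6 measured genes were detected, among them Cdkn1a (2585, 2452 and 3027 units) and Mdm2 (5099, 3947 and 4395 units). Sesn1, a sestrin that protects against oxidants, read 260.2, 138.5 and 637.2 units, highest at passage 18. All 6 were lower at passage 14 than at 13, against 52.1% of all detected genes. All 6 were higher at passage 18 than at 14, against 52.7%, and 4 were higher at passage 18 than at 13.

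**Figure D5:**
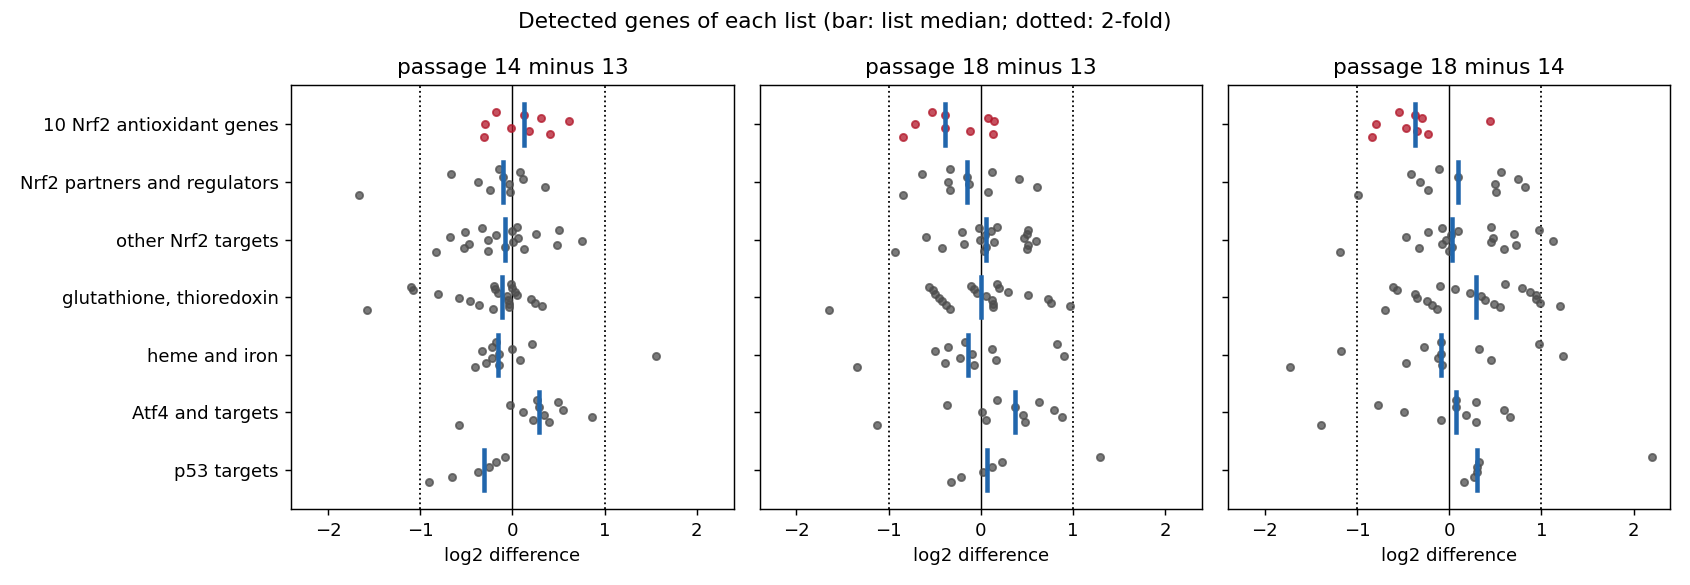
Log2 difference between 2 arrays (horizontal axis) for the detected genes of 7 lists (rows), with 1 panel for each pair of passages; points are genes, blue bars are list medians and dotted lines mark 2-fold. In the panel of passage 18 minus 14 the median of the Nrf2 antioxidant genes is -0.38 and that of the other Nrf2 targets 0.03.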

How the data were processed

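Total RNA of 3 imLEC cultures was extracted in parallel and amplified isothermally in 1 round, and the resulting cDNA was fragmented and labelled with biotin, per the labels' protocols. The deposited intensity values are linear signals per probe set, already on a common scale (array medians 25.7, 26.0 and 26.3), and the submitters' processing notes name MAS5; its role and version are not given in the sources used. The deposited intensities were taken to log2 with no further scaling or pseudocount.

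Probe sets with 1 annotated gene (34945) were used, with symbols updated through Entrez identifiers to GRCm38.p6 for 34741 of them, and each gene was represented by its brightest probe set. The labels name no build, so positions are given for RefSeq promoter windows alone. The trend test used R 4.3.3 and limma 3.58.1 (lmFit, eBayes with an intensity trend, two-sided, Benjamini-Hochberg), and the code was tested on simulated data. Differences between passages are log2 values of single arrays, later minus earlier, with no test. The number of arrays limits the precision. Members, lists, tests and alternatives were chosen with earlier results of these data known. Named genes are all members, and from each list the 6 detected genes of widest range and 2 of narrowest, of which a part is printed, with genes below the floor. Of cell type markers the first 2 of the pan-endothelial, lymphatic and leukocyte lists are named, and none of the fibroblast and keratinocyte lists. Slc3a2, Adgre1, Itga9, Mmrn1 and Reln, outside that rule, were named after their values were seen. The planned look at protein sequences was not made. Alternatives were the floor, the choice of probe set, scaling, 16 added before the log, no filter, all probe sets, another coding of passage, no intensity trend and leaving out each culture.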

Additional observations from a re-analysis of the deposited data

How the results depend on the processing

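Detection of 9 of 10 members held under every floor, probe set choice, scaling and left-out culture tried, and 0 detected members were 2-fold apart in any pair under the floors, probe set choices and scalings tried and with 16 added before the log. The count lower at passage 18 than at 14 was 8 of 9 under the same alternatives, except 7 with the probe set median, and the median difference lay between -0.55 and -0.37. Between passages 18 and 13 the median was -0.22 with the median of probe sets, against -0.39. In limma 0 genes passed under each of the 10 fits, with a smallest adjusted p between 0.615 and 0.945. With the median of probe sets the slope of Nfe2l2 turned to 0.015, since that median takes in a probe set below the floor.

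With a culture left out, a slope is a difference between 2 arrays with no test. Slopes then ranged from -0.057 to 0.31 for Keap1, -0.12 to 0.61 for Gclc, -0.31 to 0.11 for Nqo1, -0.20 to 0.40 for Gclm, -0.21 to 0.13 for Srxn1 and -0.075 to 0.18 for Gsr, so without the passage 18 array these 6 change sign, and Keap1 and Gclc do so without the passage 14 array too. Hmox1 (-0.30 to -0.14), Txnrd1 (-0.18 to -0.09) and Nfe2l2 (-0.09 to -0.01) kept theirs on the brightest probe set. The other Txnrd1 probe sets were higher at passage 14 than at 13, so without the passage 18 array their slope is positive. The floor at passage 18 was set by Syt1 and Prm1. Without them, a choice made after seeing the data, the floors were 29.0, 33.2 and 29.1 units and 10094 genes were detected, against 8610, now with Rbx1, Gpx2 and Prox1 among them. No paired analysis was possible because there is 1 group, with 1 array per passage.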
